A study of Mus musculus with 3 samples.

Results

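The genes described here are 7 pigment genes of the melanocyte (Tyr, Tyrp1, Dct, Pmel, Mlana, Slc45a2 and Oca2) and 3 genes that act upstream of them, namely the transcription factor Mitf, the receptor Kit and its ligand Kitl. They were chosen by symbol. All probe sets named for 1 of these symbols were taken, which gave 20 probe sets for 10 genes, out of 34945 probe sets that name a single gene and 18193 genes in all. No probe set of the 10 genes is shared with another gene, and each of the 10 genes is on the array.

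The study asked whether feeding powdered eggshell membrane (pESM) changes the skin of mice that lack Interleukin-10. RNA from back skin was pooled within each group and measured on 1 expression array per group. The knockout mice were male, and the sex of the WT mice is not stated. The WT group held 5 C57BL/6J mice on an AIN-93-based diet. The KO group held 7 Interleukin-10 knockout mice on the same diet, and the KOE group held 6 knockout mice on that diet with 8% pESM. All mice were 4 weeks old at the start and were fed for 28 weeks, the white fat of the dermis was taken off the skin, and 250 ng of pooled RNA was used per array. The knockout mice descended from B6.129P2-IL-10<tm1Cgn>/J males crossed to C57BL/6J females, and the crosses described yield no littermates of the WT type. The sources used here do not say which mice entered a pool.

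Melanocytes make the pigment melanin in organelles called melanosomes and hand it to the keratinocytes of the hair shaft and the epidermis. In the body skin of mice most of this pigment goes into hair, and melanin is made while the hair follicle grows and not while it rests. Mitf switches on the pigment genes, and Kit on the surface of the melanocyte, bound by Kitl from neighbouring skin cells, keeps melanocyte precursors alive and acts on Mitf. Mast cells also carry Kit.

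Mitf binds a short DNA motif, the E-box CATGTG, which is called an M-box when a T stands before it. The 250 bases before each transcript start in the RefSeq promoter table were searched on both strands for CATGTG and for the second E-box form CACGTG. They are printed for the 4 pigment genes in which CATGTG was found, so that the motif can be read beside the fold changes that follow. The sequences are from RefSeq, build GRCm38.p6, written 5′ to 3′ on the strand of the gene and in lower case, with the motif in capitals. CACATG is the same motif read from the opposite strand.
Tyr, chr7:87493513-87493762, minus strand: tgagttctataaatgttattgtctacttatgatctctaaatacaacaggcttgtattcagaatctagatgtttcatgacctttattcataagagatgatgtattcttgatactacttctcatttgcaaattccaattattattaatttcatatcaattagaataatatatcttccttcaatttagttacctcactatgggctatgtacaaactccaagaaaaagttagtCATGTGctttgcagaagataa
Tyrp1, chr4:80833963-80834212, plus strand: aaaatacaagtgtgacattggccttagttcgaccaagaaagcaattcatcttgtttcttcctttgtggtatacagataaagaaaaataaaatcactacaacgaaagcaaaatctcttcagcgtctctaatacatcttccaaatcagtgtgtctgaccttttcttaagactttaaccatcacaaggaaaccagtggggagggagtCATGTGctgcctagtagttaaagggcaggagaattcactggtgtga
Dct, chr14:118052247-118052496, minus strand: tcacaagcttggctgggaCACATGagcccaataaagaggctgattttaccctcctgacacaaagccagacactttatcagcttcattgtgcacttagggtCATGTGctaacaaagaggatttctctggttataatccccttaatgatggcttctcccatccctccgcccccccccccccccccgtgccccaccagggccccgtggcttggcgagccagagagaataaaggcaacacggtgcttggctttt
Oca2, chr7:56239509-56239758, plus strand: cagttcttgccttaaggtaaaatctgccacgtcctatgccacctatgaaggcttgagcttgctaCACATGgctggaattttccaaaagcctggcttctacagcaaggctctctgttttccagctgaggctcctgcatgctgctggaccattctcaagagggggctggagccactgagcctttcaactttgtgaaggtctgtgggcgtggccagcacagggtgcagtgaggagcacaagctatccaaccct

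The promoter table matched 7 of the 10 genes, with 10 starts. The start of a transcript need not be the outer edge of its gene. The windows of Tyr and Dct lie outside the gene's annotated span, while 90 bases of the Tyrp1 window, 166 of the Oca2 window and parts of the Mitf, Kit and Kitl windows lie inside it. Tyr held CATGTG at 21 to 16 bases before the transcript start and Tyrp1 at 46 to 41, the latter inside the gene's span, both on the strand of the gene and both with the T in front. Dct held it at 232 to 227 on the opposite strand and at 150 to 145 on its own strand, again with the T. Oca2 held it at 186 to 181 on the opposite strand, without the T. CACGTG was in none of these windows, and neither form was found in the windows of Mitf (3 starts), Kit (2 starts) or Kitl. Pmel, Mlana and Slc45a2 have no entry in the table. Of all 32851 promoters in the table, 12.3% hold CATGTG, 6.02% hold CACGTG and 3.25% hold CATGTG with the T. A match of letters does not show that Mitf binds there.

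The arrays were scaled to the same trimmed mean signal, and their median signals were 116.0 in the WT, 96.26 in the KO and 107.5 in the KOE array. Il10, the gene altered in the knockout, had a signal of 17.02 in the WT array, 679.9 in the array labelled KO and 401.0 in the array labelled KOE at its 1 probe set. Whether this probe set lies in the deleted part of the gene was not tested, so its signal does not check the labels, and KO and KOE stand below for the arrays so labelled. Following the limits in the study's methods, a difference of 1.5-fold or more is called past the cut-off here, provided that either array of the pair had a signal of 40 or more. By this rule 3413 probe sets were higher and 6529 lower in KO vs WT. The study reported smaller counts, with more probe sets higher than lower, so its counts were not reproduced. The reason was not tested. With 1 array per group there is no replicate check and no test, so all differences describe these pools and not the mice in them. In RNA from whole skin, fewer melanocytes and less RNA per melanocyte cannot be told apart. Among all probe sets that passed in KO vs WT, 34.3% were higher as deposited but 63.8% once the arrays had a common median. All 20 probe sets of the 10 genes reached 40 in at least 1 array and 15 did in all 3 arrays.

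The pigment genes were far lower in the KO array than in the WT array. All 12 of their probe sets were lower past the cut-off, where 20.2% of all probe sets lay lower and 10.6% higher. Read at the strongest probe set of each gene, 7 of 7 were lower, beside 14.5% of all genes, with a median log2 fold change of −4.06 beside 0.01 over all genes. The KO signal was between 2.60% and 23.9% of the WT signal, with a median of 5.99%. In the KOE array 4 of the 7 were higher than in KO past the cut-off, where 10.9% of all genes were higher and 5.33% lower. Under 10 other settings of the processing, Dct and Pmel kept this call in all. Tyrp1 lost it in 3, and for Tyr it was lost or turned in 9. The KOE signal was still 4.10% to 30.5% of WT, with a median of 15.1%. The study also stained back skin for melanin by the Fontana-Masson method. It saw no obvious difference there with the knockout or with pESM. That stain shows pigment and not RNA, and it was not compared with these signals.

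**Figure D1:**
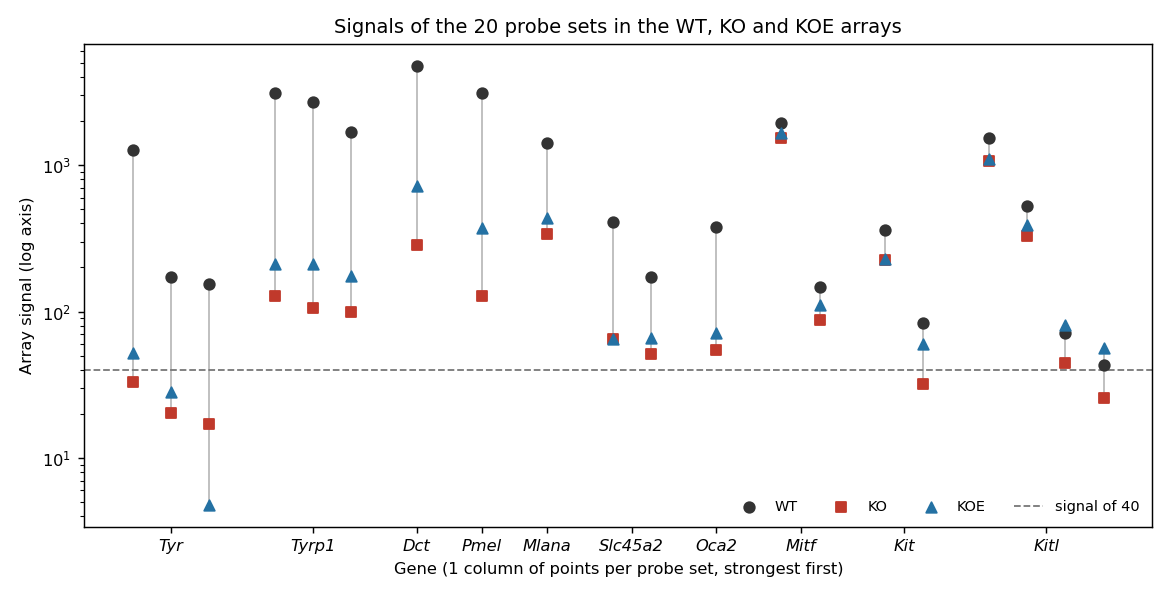
Signal of each of the 20 probe sets in the WT (circle), KO (square) and KOE (triangle) arrays of pooled RNA, on a log axis, with 1 column of points per probe set and the strongest probe set of each gene first. The dashed line marks a signal of 40, and every pigment gene probe set had its KO and KOE points far below the WT point, while those of Mitf, Kit and Kitl lay closer together.

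The tyrosinase family makes melanin. Tyr encodes tyrosinase, the enzyme of the first step. Its strongest probe set had a signal of 1266 in the WT, 32.88 in the KO and 51.90 in the KOE array, so that KO was 38.5-fold lower than WT, or 31.6-fold with the KO signal set to 40. The second probe set had 170.8, 20.22 and 28.21. The third had 153.5, 16.94 and 4.778. All 3 Tyr probe sets were thus high in WT alone, and below it 5 of the 6 signals in KO and KOE were under 40. The order of KO and KOE differed between them and rests on weak signals, since the log2 fold change of KOE vs KO was 0.66, 0.48 and −1.83. The mean over the 3 probe sets was −0.23, the opposite sign to the strongest one, and the KOE vs KO call of Tyr was lost or turned in 9 of 10 alternatives.

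Tyrp1 encodes tyrosinase-related protein, which stabilises tyrosinase and acts late in the making of black pigment. Its strongest probe set had 3125 in the WT, 126.9 in the KO and 210.2 in the KOE array, a 24.6-fold lower signal in KO than in WT. The other two had 2684, 105.3 and 212.1, and 1685, 99.15 and 175.1. The 3 probe sets gave the same order, with WT highest and KO lowest. The log2 fold changes of KO vs WT were −4.62, −4.67 and −4.09, and those of KOE vs KO were 0.73, 1.01 and 0.82.

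Dct encodes dopachrome tautomerase, an enzyme between tyrosinase and Tyrp1 in the pathway and a common marker of early melanocytes. Its single probe set had 4761 in the WT, 285.2 in the KO and 717.9 in the KOE array. KO was 16.7-fold lower than WT, and KOE was 2.52-fold higher than KO but 6.63-fold lower than WT.

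Pmel forms the fibrils on which melanin is laid down inside the melanosome. Its single probe set had 3117 in the WT, 128.6 in the KO and 370.1 in the KOE array. KO was 24.2-fold lower than WT, and KOE was 2.88-fold higher than KO, the highest KOE to KO ratio among the 7 pigment genes at their strongest probe sets. Mlana encodes a small melanosome protein that works with Pmel. It had 1422 in the WT, 340.3 in the KO and 434.4 in the KOE array. Its 4.18-fold lower signal in KO was the smallest difference among the 7 pigment genes at their strongest probe sets, and its KOE vs KO log2 fold change of 0.35 was not past the cut-off.

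Slc45a2 and Oca2 are transporters of the melanosome membrane that set the conditions in which tyrosinase works. Slc45a2 had 409.6 in the WT, 65.04 in the KO and 64.97 in the KOE array at its strongest probe set. The weaker probe set had 171.0, 50.90 and 65.74. KO was lower than WT by 6.30-fold at the first, and the KO and KOE arrays were level there, with a log2 difference of −0.00 that ranged from −0.23 to −0.00 over the scalings. Oca2 had 377.0 in the WT, 54.26 in the KO and 70.88 in the KOE array, a 6.95-fold lower signal in KO than in WT and a log2 difference of 0.39 between KOE and KO that was not past the cut-off.

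Mitf, Kit and Kitl differed much less than the pigment genes. Their 8 probe sets were all lower in KO than in WT as deposited, and 6 were past the cut-off, where 20.2% of all probe sets were lower, with log2 fold changes from −1.38 to −0.35. Scaling the arrays to a common median adds 0.27 to every KO vs WT log2 fold change, and then 1 of the 8 was lower past the cut-off. It was 1 after quantile normalization and 2 after cyclic loess. The 12 pigment probe sets were lower past the cut-off under each of these scalings. Different probe sets of 1 gene differed in KO vs WT with an SD of 0.35 on the log2 scale over 6055 genes, beside shifts of −0.68 to −0.35 for these 3 genes at their strongest probe sets.

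Mitf, the transcription factor that switches on the pigment genes, had 1948 in the WT, 1529 in the KO and 1670 in the KOE array at its strongest probe set. Its other probe set had 146.0, 87.12 and 110.9. The deposited signals were in the order WT, KOE, KO at both. The strongest did not pass the cut-off in any comparison, where the log2 fold change was −0.35 in KO vs WT and −0.22 in KOE vs WT. Between KOE and KO it was 0.13, and this value ranged from −0.03 to 0.14 over the scalings. Mitf is made from several promoters in different cell types, and which of its transcripts these probe sets read was not tested.

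Kit, the receptor tyrosine kinase, had 361.4 in the WT, 226.0 in the KO and 228.7 in the KOE array at its strongest probe set. The other had 83.34, 32.10 and 59.98. At the strongest, KO was 1.60-fold lower than WT and the KO and KOE arrays were level, with a log2 difference of 0.02 that ranged from −0.14 to 0.02 over the scalings. The KO vs WT log2 fold change of −0.68 was −0.41 after scaling to a common median, −0.52 after quantile and −0.56 after cyclic loess normalization, each of them under the cut-off. The weaker probe set differed more, at −1.38 (KO vs WT) and 0.90 (KOE vs KO), but its KO signal was under 40.

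Kitl, the Kit ligand, also called stem cell factor, had 1539 in the WT, 1069 in the KO and 1100 in the KOE array at its strongest probe set. The second had 523.3, 330.1 and 392.4. The 2 weak ones had 70.91, 44.34 and 80.34, and 42.80, 25.57 and 56.45. KO was lowest at all 4 as deposited. The strong ones had WT highest and KOE between, while the weak ones had KOE highest. The log2 fold changes of KOE vs KO were 0.04, 0.25, 0.86 and 1.14 from the strongest to the weakest, and that of the strongest ranged from −0.12 to 0.05 over the scalings. Kitl is in a gene list that the study chose on these arrays, so its direction in KOE vs KO is not independent evidence. The study listed it as 1.81-fold higher in KOE than in KO. One of the weak probe sets here has that ratio, while the strongest has 1.03.

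In KOE vs KO, 9 of the 20 probe sets passed the cut-off upward and 0 downward, where 14.5% of all probe sets were higher and 5.93% lower. The 9 were 6 of the 12 pigment probe sets, from Tyr (1), Tyrp1 (3), Dct (1) and Pmel (1), and 3 of the 8 of Mitf, Kit and Kitl, namely the weaker Kit probe set and the 2 weak ones of Kitl. At their strongest probe sets 4 of 10 genes were higher, where 10.9% of all genes were higher and 5.33% lower. The median of the 7 pigment genes was 0.66 beside 0.02 over all genes, and raising signals under 40 to 40 gave 0.39. Scaling to a common median takes 0.16 from every KOE vs KO value. Dct and Pmel were then still past the cut-off, at 1.17 and 1.37, while Tyr at 0.50 and Tyrp1 at 0.57 were not.

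Against WT, 13 of the 20 probe sets were lower in KOE past the cut-off, where 14.5% of all probe sets were lower. These were all 12 of the pigment genes and the strongest of Kit. By gene, 8 of 10 were lower, where 10.4% of all genes were, and the pigment gene median was −2.73 beside 0.05 over all genes. The eighth was Kit, at −0.66, which was under the cut-off after scaling to a common median (−0.55) and after quantile normalization (−0.57). KO vs WT and KOE vs KO share the KO array, and KOE vs WT shares an array with each, so the 3 comparisons are not independent of one another.

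**Figure D2:**
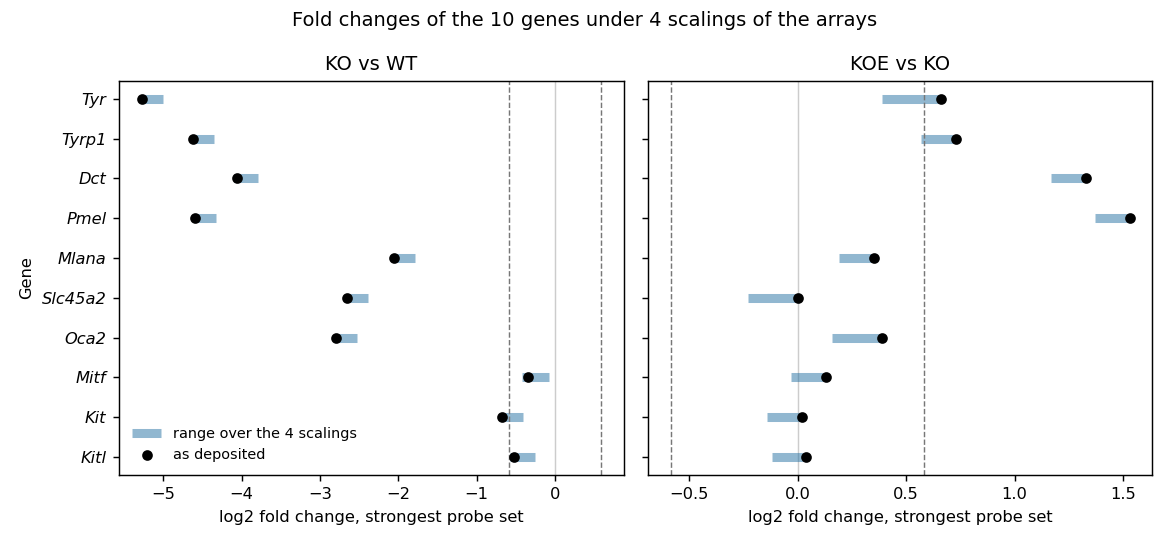
Log2 fold change of each of the 10 genes at its strongest probe set, with KO vs WT in the left panel and KOE vs KO in the other. The black point is the value from the deposited signals, the blue bar spans the deposited values and 3 other scalings (common median, quantile and cyclic loess), and dashed lines mark 1.5-fold, with a different horizontal range in each panel. The 7 pigment genes stayed left of the line in KO vs WT under all 4, while Kit crossed it, and in KOE vs KO Dct and Pmel stayed right of it under all 4.

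Other genes that melanocytes express strongly did not all follow the pigment genes. Of 10 measured genes, 5 passed the cut-off downward in KO against WT and 0 upward, where 14.5% of all genes were lower and 10.9% higher. Their median log2 fold change was −0.93. After scaling to a common median 5 were lower and 2 higher. With the probe sets of each gene averaged, 6 were lower and 1 higher. Trpm1, a channel of melanocytes and retina, had a signal of 339.8 in the WT, 13.11 in the KO and 5.134 in the KOE array. Mc1r, the receptor for melanocyte-stimulating hormone, had 247.7, 19.21 and 110.4. Both were highest in WT and under 40 in KO. Read at the strongest probe sets, Mc1r was the member of this list with the largest KOE to KO ratio among those that reached 40 in either array of the pair. Another Trpm1 probe set had 143.3, 3.103 and 61.91, so that KOE was above KO there, with a log2 fold change of 4.32. At the further Trpm1 probe sets KOE was lowest.

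Tspan10, a tetraspanin, had 138.4 in the WT, 50.78 in the KO and 33.58 in the KOE array, and Ednrb, the endothelin receptor of melanocyte precursors, had 819.7, 281.2 and 197.2. Gpr143, a melanosome receptor named here after its values were seen, was the fifth, with 176.9, 25.71 and 20.22. Slc24a5, a further gene of melanosome ion exchange, was not analysed here. The other 5 did not pass the cut-off in KO vs WT at their strongest probe sets. Sox10, a transcription factor of melanocytes and Schwann cells, had 211.1, 310.4 and 344.4, and Rab38, which sorts cargo to melanosomes, had 1810, 2476 and 2202. A weaker Sox10 probe set was higher past the cut-off, with 43.83 in WT and 67.65 in KO. Pax3, named here after its values were seen, had 110.7, 98.37 and 113.1. Its weaker probe sets were lower past the cut-off, with 73.44 in WT and 20.80 in KO, and 97.19 and 49.82. Gpnmb, a melanosome protein that macrophages also make, had 5093, 3824 and 3468. Between KOE and KO, at the strongest probe sets, Tspan10 was lower past the cut-off, and Mc1r and Mlph, the latter named after its values were seen, were higher. Over all genes 5.33% were lower and 10.9% higher there. Tspan10 was not past the cut-off with 40 in both arrays or with signals under 40 set to 40, and Mlph, at 0.59, was not after scaling to a common median. Only Tspan10 and Ednrb of the 5 lower genes had at least 40 in both the WT and the KO array.

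Genes for the transport and assembly of melanosomes, which many other cells also use for related organelles, mostly did not differ past the cut-off. Of 24 measured, 2 were lower and 0 higher in the KO array against WT, where 14.5% of all genes were lower and 10.9% higher, with a median of −0.10. After scaling to a common median 2 were lower and 2 higher, with a median of 0.17. With the probe sets of each gene averaged, 3 were lower and 0 higher. Myo5a, the motor that carries melanosomes, had 1381 in the WT, 735.2 in the KO and 714.2 in the KOE array, and Tpcn2, an ion channel of melanosomes and lysosomes, had 179.0, 77.50 and 83.08. The strongest signal of the list, Mreg, had 3264, 3971 and 3669. Slc7a11, named here after its values were seen, had 38.37, 39.51 and 50.56 at its strongest probe set. Its other probe set had 91.71, 1.759 and 2.953, so it was lower in KO than in WT there. From KO to KOE, read at the strongest probe sets, Rab32, with 797.7 and 1266, and Hps5, with 111.8 and 183.0, were higher and none was lower. Over all genes 10.9% were higher and 5.33% lower in KOE vs KO. Neither Rab32 nor Hps5 was past the cut-off after scaling to a common median.

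Downstream of Kit, 1 of 26 measured genes passed the cut-off downward in KO vs WT and 3 upward, where 14.5% of all genes were lower and 10.9% higher, with a median of 0.07. The counts were 1 and 5 after scaling to a common median, and 1 and 1 with 40 added to every signal. Braf, a kinase between the receptor and the MAP kinases, was the lower one, with 1538 in the WT, 831.5 in the KO and 765.1 in the KOE array, and all 9 of its probe sets were lower in KO. The higher ones were Gab2, an adaptor protein, with 480.3 in WT and 870.3 in KO, Nf1, a brake on Ras, with 113.3 and 185.5, and Stat5a, a transcription factor named here after its values were seen, with 242.6 and 379.3. Ptpn11, a phosphatase that acts below receptor kinases, was close to level over the arrays, with 2832, 2686 and 2748. Snai2, a transcription factor of the melanocyte lineage, had 3027, 3207 and 3516 at its strongest probe set, while its other probe set had 449.6, 862.3 and 813.1, past the cut-off in KO vs WT. Between KO and KOE, Socs1, an inhibitor of cytokine signaling, was lower, with 93.73 in KO and 58.06 in KOE, and none was higher.

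Among signals that skin cells send to melanocytes, 2 of 10 measured genes passed the cut-off downward in KO vs WT and 1 upward. Over all genes 14.5% were lower and 10.9% higher, so these counts are close to the general share. Corin, a protease of the dermal papilla that acts on coat colour, had 348.0 in the WT, 2.237 in the KO and 21.40 in the KOE array. Hgf, a growth factor for melanocytes, had 24.57, 53.95 and 57.56, close to the limit of 40. It was not past the cut-off with 40 in both arrays or with signals under 40 set to 40. Another Hgf probe set was also higher in KO, with 28.21, 46.83 and 44.95. A further one, under 40 in every array, was lower in KO, at 10.41 against 33.16 in WT. Edn1, named here after its values were seen, had 414.7, 218.0 and 192.7. Pomc, the precursor of melanocyte-stimulating hormone, had 123.5, 95.89 and 125.1 and did not pass the cut-off. None of the 10 did in KOE vs KO at its strongest probe set. Asip, which switches melanocytes to yellow pigment, was not analysed here.

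**Figure D3:**
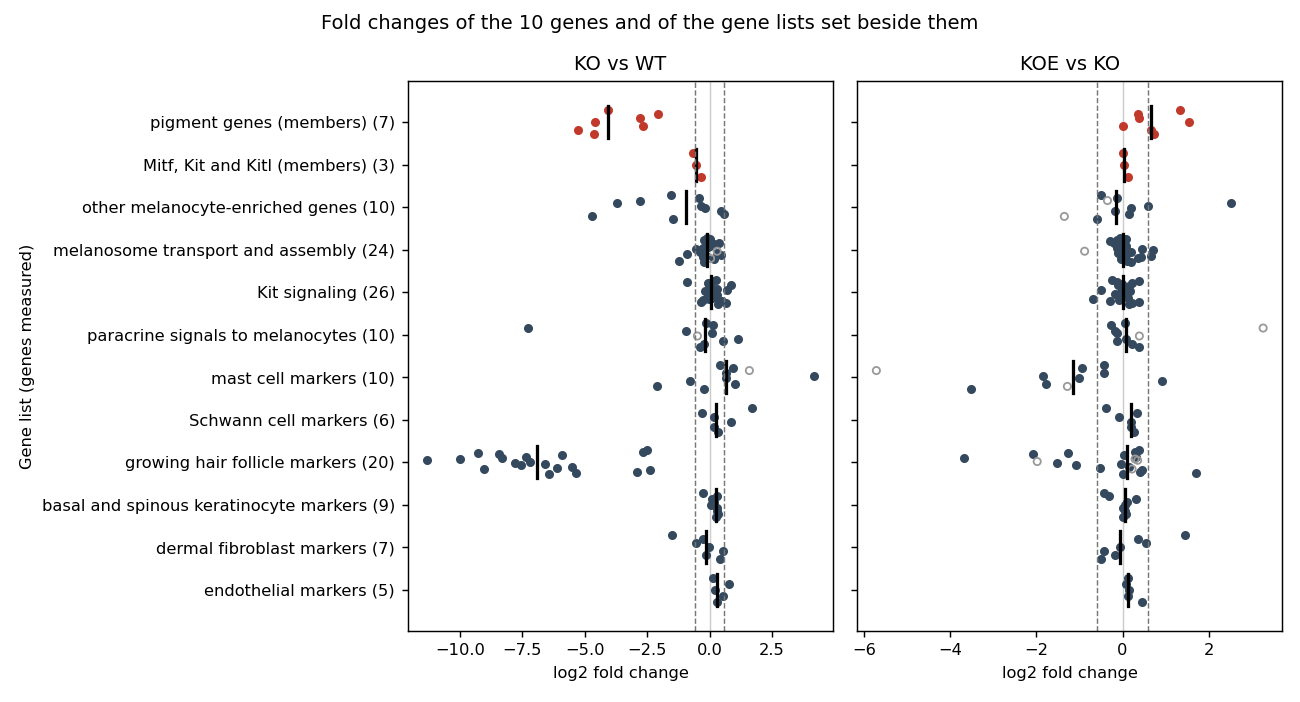
Genes of 12 lists by their log2 fold change, with KO vs WT in the left panel and KOE vs KO in the other, which has its own horizontal range. Each point is a gene at its strongest probe set (the 10 described genes in red), open points had under 40 in both arrays, black bars are list medians and dashed lines mark 1.5-fold. The pigment genes, with a median of −4.06, and the growing hair follicle markers, with a median of −6.91, have the lowest medians of the lists in KO vs WT.

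Markers of other skin cells moved with these genes to different degrees. Each of the 20 measured markers of the growing hair follicle passed the cut-off downward in KO vs WT, with a median log2 fold change of −6.91 and a range from −11.31 to −2.38. Their summed signal was 215067 in the WT, 2059 in the KO and 2097 in the KOE array. None was under 40 in WT, 5 were in KO and 9 in KOE. Krt25, a keratin of the inner root sheath, had 31928 in the WT, 51.55 in the KO and 21.39 in the KOE array. The part of the hair follicle in the lower pigment gene signals was not tested.

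Between KO and KOE the follicle markers were mixed. Of the 20, 5 passed the cut-off downward in KOE and 1 upward, where 5.33% of all genes were lower and 10.9% higher, but none did in either direction with 40 in both arrays. The list had a median of 0.09, which became 0.00 once signals under 40 were raised to 40. The higher one was Shh, a signal of the growing follicle that is named after its values were seen, with 18.18 in KO and 59.09 in KOE. In the same comparison Dct and Pmel were 2.52- and 2.88-fold higher in KOE than in KO, both with signals over 100 in each array.

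More of the mast cell markers were higher than lower in the KO array, in which Kit was lower than in WT as deposited. Of 10 measured, 5 passed the cut-off upward against WT and 2 downward, where 10.9% of all genes were higher, and their summed signal was 1971 in the WT, 3259 in the KO and 1771 in the KOE array. Cpa3, a carboxypeptidase of mast cell granules, had 744.3, 1404 and 728.9, and Mcpt4, a granule protease, had 533.6, 834.9 and 418.0. Gata2, a transcription factor of mast cells, had 174.1, 271.2 and 203.0. The KO array was the highest of the 3 for each of these at the strongest probe set, while a weaker Gata2 probe set had 69.29, 66.80 and 156.1. Cma1 had 271.2, 357.8 and 264.3 and was not past the cut-off in KO vs WT. Hdc, which makes histamine, was also higher in KO, with 6.850, 123.4 and 34.40, but Tpsab1, a tryptase, was lower, with 43.57, 10.08 and 4.144.

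In KOE vs KO 5 of the mast cell markers were lower and 1 was higher, where 5.33% of all genes were lower. Those under 40 were 2 in the WT, 3 in the KO and 4 in the KOE array, and none was at 0. The share of the Kit signal that comes from mast cells was not tested.

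**Figure D4:**
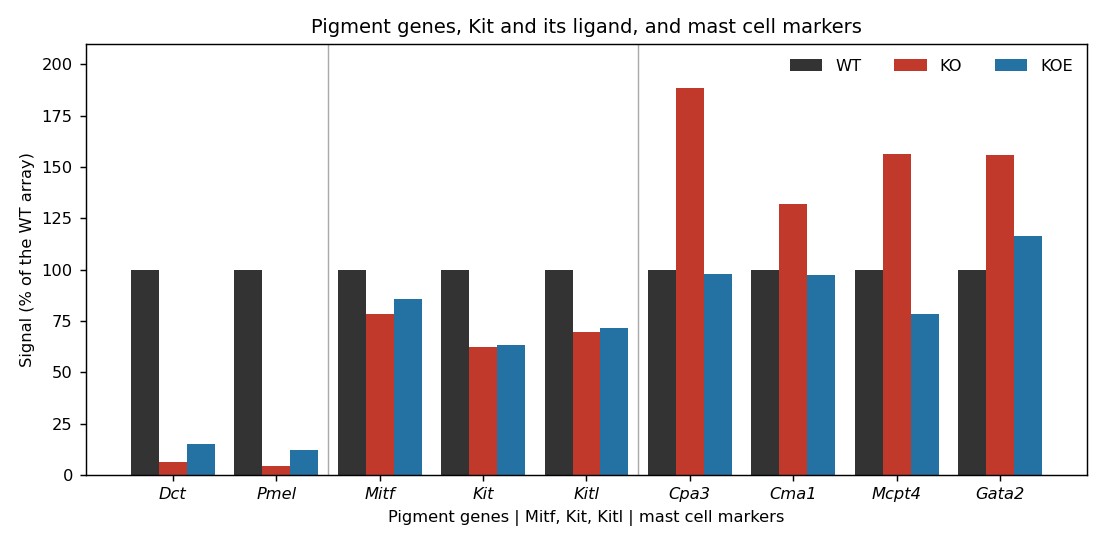
Signal in the WT, KO and KOE arrays as a percent of the WT signal, for 2 pigment genes, for Mitf, Kit and Kitl and for the 4 mast cell markers with the highest mean signal, from 1 array of pooled RNA per group and with no error bars for that reason. Dct and Pmel stood at 5.99% and 4.12% of WT in KO and Kit at 62.5%. The 4 mast cell markers drawn were above WT in KO, Cma1 by less than the cut-off. Of all 10 mast cell markers measured, 5 were higher and 2 lower in KO past the cut-off.

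Markers of other cell types of the skin were also counted, as deposited and at their strongest probe sets. In KO vs WT 14.5% of all genes were lower and 10.9% higher. None of 9 markers of basal and spinous keratinocytes passed the cut-off in KO vs WT, and their summed signal was 138698 in the WT, 162769 in the KO and 168195 in the KOE array. Of 6 Schwann cell markers, which share Sox10 with melanocytes, 2 were higher in KO and none was lower, with a summed signal of 15490, 19017 and 20844. Of 7 fibroblast markers, 1 was lower and none was higher, with a summed signal of 138791, 110297 and 133487. After scaling to a common median 1 was lower and 2 were higher. With the probe sets of each gene averaged, 3 were lower and 0 higher, so this count depends on the probe set read. Of 5 endothelial markers, 1 was higher and none was lower, with a summed signal of 1667, 2270 and 2549. No marker of these 4 lists was under 40 in any array.

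The genes most like the pigment genes were found by the distance between their log2 fold changes in KO vs WT and KOE vs KO and the medians of the 7 pigment genes, −4.06 and 0.66. Among 10613 genes outside the lists that reached a signal of 200 in any array, the nearest were Slc7a8 at 0.21, Otop2 at 0.41, Syt4 at 0.43, Capn8 at 0.46 and Tm4sf4 at 0.51. The next 5 were Psors1c2, Cps1, Krt84, Plb1 and 2310061N02Rik, at 0.57 to 0.70. Slc7a8, an amino acid transporter, had a signal of 794.0 in the WT, 47.47 in the KO and 64.91 in the KOE array. Krt84, a hair keratin, had 863.8, 73.67 and 90.14, and Psors1c2 had 4363, 284.2 and 305.5. All 10 were highest in WT, which follows from choosing them by these ratios. In KO, 5 of them, Otop2, Syt4, Tm4sf4, Cps1 and 2310061N02Rik, were under 40.

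Of the pigment genes themselves, Tyrp1 lay at 0.57 from the medians, Dct at 0.67, Pmel at 1.02, Tyr at 1.21, Oca2 at 1.29, Slc45a2 at 1.55 and Mlana at 2.02. Between 5 and 81 genes outside the lists lay nearer to the medians than each of them. Kit at 3.44, Kitl at 3.59 and Mitf at 3.75 lay farther away, with 817 to 1734 genes nearer. The measure rests on 3 arrays, so a small distance says no more than that the signals of the arrays stood in similar ratios.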

How the data were processed

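Pooled back-skin RNA of the WT, KO and KOE groups was measured on 3 Affymetrix Mouse Genome 430 2.0 arrays, 1 per group. The values deposited by the authors are intensities on a linear scale, made in R with the Affymetrix Microarray Analysis Suite, and the 2% trimmed mean of each array was checked to be 500. Raw images and detection calls were not analysed here, and the number of arrays limits the precision.

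Of 45101 probe sets, 64 controls were left out. Gene names came from the platform's annotation, with symbols updated by gene identifier through RefSeq, and those with several genes were not used. Each gene was read at its strongest probe set, by mean signal over the arrays. Ratios were taken from the deposited signals with no further scaling, and the cut-off was a difference of at least 1.5-fold (0.58 on the log2 scale) and a signal of 40 or more in either array compared, since the study's methods do not say which array must pass it. With 1 array per group no test was made and no p-value is given. In place of a test, counts and medians stand beside those of all genes that reached 40.

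The 10 genes and the lists beside them were chosen with earlier results of these data known. Named genes are the 10 genes, and, of each list, the 4 with the highest mean signal and the 2 with the largest absolute log2 fold change in KO vs WT and in KOE vs KO among those that reached 40 in either array. Genes named by sight are marked as such. The procedure was tested on simulated data. Alternatives were a common median, quantile and cyclic loess normalization (span 0.7, 3 iterations), signal limits of 40 in both arrays, none and 100, a fold limit of 2, 40 added to every signal, signals under 40 set to 40, and a gene's mean log2 signal over its probe sets. Python 3.11.15, numpy 2.4.6, pandas 2.3.3, R 4.3.3 and limma 3.58.1 were used.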

Additional observations from a re-analysis of the deposited data

How the results depend on the processing

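No replicate could be left out and no paired analysis was possible because each group has 1 array. The lower pigment genes in KO vs WT kept their direction in all 70 values over the alternatives, and 69 stayed past the cut-off. The other was Tyr, whose KO signal is under 40, with the limit of 40 in both arrays. In KOE vs WT all 70 stayed past it. Of the 40 values of the 4 pigment genes past it in KOE vs KO, 12 were lost or turned. Tyr kept its call in 1 of 10 alternatives, with no signal limit, and turned to −0.23 when its probe sets were averaged. Tyrp1 lost its call in 3, and Dct and Pmel kept theirs in all 10. Of the member probe sets higher in KOE than in KO, 9 as reported, 5 were with a signal limit of 100, 4 with a fold limit of 2 and 4 with 40 added to every signal, and the pigment gene median of 0.66 was 0.33 with 40 added. For KO vs WT, 2 of the other melanocyte-enriched genes, in place of 5, were lower with 40 in both arrays. With a fold limit of 2, 1 mast cell marker was higher in place of 5, and 0 Kit signaling genes were lower in place of 1. Kit in KO vs WT fell under the cut-off in each of the 3 scalings and with a fold limit of 2, and in KOE vs WT in 5 of 10 alternatives, the common median and quantile normalization among them. The cause was not tested.

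Scaling moved the share of higher among the probe sets past the cut-off. It was 34.3% for KO vs WT as deposited, 63.8% after a common median, 51.5% after quantile and 46.6% after cyclic loess normalization. For KOE vs KO it was 70.9%, 51.3%, 50.0% and 49.6%, and for KOE vs WT 47.7%, 60.2%, 51.7% and 45.1%. Signals under 40 limit what can be read from Tyr, Trpm1, Mc1r and the follicle markers in KO.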
